A study of Mus musculus with 6 samples.

Results

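The genes described here are the mitotic spindle, kinetochore and condensin genes, 48 genes picked by symbol from the count table of an RNA-seq experiment on cultured mouse bone marrow cells. The list takes in G2/M kinases and cyclins, spindle assembly checkpoint genes, kinetochore and centromere genes, kinesins, spindle and cytokinesis genes, the subunits of condensin I, Top2a, Mki67 and Foxm1. All 48 symbols were found among the 17469 genes of the table. All 48 also had enough counts to be tested, among 12701 genes in all, and they lie on 17 chromosomes.

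The control mice were Ocn-Cre;Ai9 and the mutant mice TgAPPswe;Ocn-Cre;Ai9 (TgAPPsweOCN), all 6 months old and untreated. Both genotypes therefore carried Ocn-Cre, which expresses Cre from the osteocalcin promoter of the osteoblast (OB) lineage, and Ai9, a reporter that turns on the red fluorescent protein tdTomato where Cre has acted. TgAPPsweOCN mice also carried human APP with the Swedish mutation (APPswe) under the CAG promoter, silent until Cre removes a stop cassette (LSL). Bone marrow stromal cells (BMSCs, the marrow cells that attach to a dish) were cultured, their Ai9+ cells were sorted and labelled as OB progenitors, and 3 libraries of each genotype were sequenced. The labels do not say whether the libraries of a genotype came from separate mice, so the p-values measure the spread between these libraries, which may be technical. Total estimated counts were 19340810 to 19801060 in the control and 21677461 to 22037840 in the TgAPPsweOCN libraries. The 48 genes had 34 to 4531 estimated counts per library. App has a single entry in the table, and whether human transgene reads were counted under it was not tested. It had 281, 275 and 281 FPKM (fragments scaled by transcript length and library total) in the control and 325, 332 and 333 in the TgAPPsweOCN libraries, a log2 fold change of 0.45 (SE 0.0509, adjusted p = 7.87e-05). SE is a standard error, taken here as the absolute log2 fold change over the square root of the F value of edgeR's test.

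As background, a dividing cell enters mitosis when cyclin-dependent kinase Cdk1, bound to A- and B-type cyclins, becomes active together with Polo and Aurora kinases. Condensin compacts the chromosomes, kinetochores built on the centromeres attach them to spindle microtubules, and the spindle assembly checkpoint holds anaphase back until every kinetochore is attached. Many of these genes are transcribed mainly in G2 and M phase, so that their mRNA is scarce in cells that do not divide. Mki67 and Top2a are used for this reason as markers of proliferating cells.

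Transcripts of most of the 48 genes were lower in TgAPPsweOCN libraries. The summed FPKM of the 48 genes was 657, 660 and 665 in control and 293, 327 and 313 in TgAPPsweOCN libraries. The groups did not overlap, and the means ± SD were 660 ± 4.11 and 311 ± 17.2 (n = 3 libraries each). These genes held between 0.189% and 0.196% of all estimated counts in the control and between 0.0778% and 0.0913% in the TgAPPsweOCN libraries. In sorted cells measured in bulk, fewer cells of a type and less RNA per cell cannot be told apart.

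By edgeR's quasi-likelihood test, with p-values adjusted by Benjamini-Hochberg over all 12701 genes, 28 of the 48 genes (58.3%) fell by both thresholds used here, an adjusted p no higher than 0.05 together with a log2 fold change of -1 or less. Over all genes tested, 9.2% met this rule. None of the 48 rose by the same rule in the other direction, which 8.9% of all genes met, and DESeq2 and limma called none either. Only Cenpt had an unadjusted p under 0.05 in that direction in edgeR. By the adjusted p alone, 45 of the 48 fell, against 31.5% of all genes. Cenpt was the only member that rose by the adjusted p alone, as 32.5% of all genes did, and Bub3 and Pttg1 did not pass in either direction. The median log2 fold change of the 48 genes was -1.12, and that of all genes tested was -0.019. Values ran from -1.83 for Ccnb2 to 0.29 for Cenpt. The 28 genes that fell had adjusted p-values from 4.04e-07 to 0.000605, and their mean FPKM in TgAPPsweOCN cells was 24.2% to 41.9% of that in control cells.

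In FPKM, every control library lay above every TgAPPsweOCN library for 46 of the 48 genes, an order seen in 48.3% of all genes tested. FPKM are scaled by library totals, and the fold changes given here by TMM factors. With library totals alone, the median of all genes tested moved from -0.019 to -0.23 on the log2 scale, 37 of the 48 genes fell by both thresholds, and 67.2% of all called genes were lower, against 50.8% with TMM. Control mean FPKM of the 48 genes ranged from 2.53 (Cenpf) to 45.3 (Bub3). The log2 fold changes of the members did not follow their level or length closely. Spearman's rho over the 48 genes, all measured in the same 6 libraries, was -0.056 with control FPKM and -0.14 with the transcript length inferred from counts and FPKM.

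The libraries of the 2 genotypes differed in spread. The median coefficient of variation of the 48 genes was 4.90% over the control and 11.1% over the TgAPPsweOCN libraries. TgAPPsweOCN replicate 1 was the lowest of its group for 36 of the 48 genes, and replicate 2 the highest for 35. Without TgAPPsweOCN replicate 1, 27 of the 48 genes fell by both thresholds, and without replicate 2, 32 did.

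Marker genes of other cells were also counted in these libraries. The 15 stromal and osteoblast-lineage markers summed to 172, 147 and 161 FPKM in control and 114, 200 and 160 in TgAPPsweOCN libraries, lowest in TgAPPsweOCN replicate 1 and highest in replicate 2, as for most of the 48 genes. Of the 13 of them that were tested, none fell and 1 rose by both thresholds in edgeR, against 9.2% and 8.9% of all genes tested. By the adjusted p, 2 fell and 3 rose, against 31.5% and 32.5%, and log2 fold changes ran from -1.20 to 3.92. At an unadjusted p under 0.05, 2 fell (5 with limma on log2(FPKM + 1)), and DESeq2 and limma called none lower. Bglap, which encodes osteocalcin, reached at most 1.25 FPKM in any library and was listed at 0 in TgAPPsweOCN replicate 3, and Dmp1, an osteocyte gene, reached at most 0.05. The 15 myeloid markers summed to 26264, 24621 and 24563 FPKM in control and 23097, 19469 and 20564 in TgAPPsweOCN libraries, highest of these in TgAPPsweOCN replicate 1 and lowest in replicate 2, the reverse of the order of the summed mitotic genes. Of these, 3 fell by both thresholds (Mrc1 -2.38, Csf1r -1.49 and Cd68 -1.26 in log2 fold change) and 5 rose (Aif1 2.04, Adgre1 1.89, Fcgr1 1.30, Itgam 1.26 and Fcer1g 1.11), so the list did not move in 1 direction. The shares over all genes tested were 9.2% and 8.9%. On the TMM scale the 15 markers had a median log2 fold change of -0.13. By the adjusted p, 6 of them fell and 6 rose, against 31.5% and 32.5% of all genes tested. By their sums, the myeloid markers were far more abundant than the stromal markers in cells labelled as OB progenitors. Summed over the list, 2 erythroid markers reached at most 0.14 FPKM and 2 T cell markers at most 0.08. The sums of 4 granulocyte precursor markers were 4.11 to 14.4 in control and 1.60 to 7.73 in TgAPPsweOCN libraries, and overlapped. The sums of 4 B cell markers were 1.99 to 3.01 in control and 3.97 to 4.69 in TgAPPsweOCN libraries, and Cd79b rose by both thresholds (1.75). The sums of 3 endothelial markers were 3.63 to 4.75 and 4.95 to 5.42. Pecam1 rose by both thresholds (1.03), and 1 of the 3 fell by the adjusted p alone (-0.97). The sum of 3 megakaryocyte markers, nearly all of it Pf4, was 635, 537 and 524 in control and 265, 115 and 174 in TgAPPsweOCN libraries, in the same order of TgAPPsweOCN libraries as the myeloid sum. Of the 2 megakaryocyte markers tested, 1 fell by both thresholds (-1.39). The part of these cell types in the fall of the mitotic genes was not tested.

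**Figure D1:**
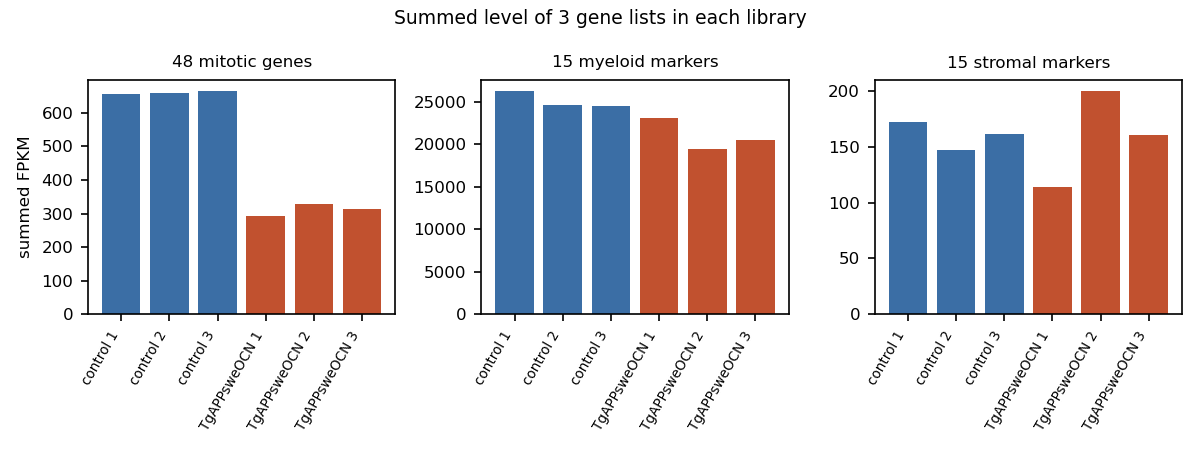
Bars give the summed FPKM of the 48 mitotic genes, 15 myeloid markers and 15 stromal markers in each of the 6 libraries, with control in blue and TgAPPsweOCN in red. The mitotic genes summed to 657 to 665 in control and to 293 to 327 in TgAPPsweOCN libraries, the myeloid sums were also lower in TgAPPsweOCN libraries without overlap (24563 to 26264 and 19469 to 23097), and the stromal sums overlapped between genotypes. On the TMM scale the median log2 fold change of the myeloid markers was -0.13, with 6 lower and 6 higher by the adjusted p.

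Since 45 of the 48 genes fell by the adjusted p, the promoters of the list were read for motifs that G2/M genes are known for. The cell cycle genes homology region (CHR), written here as TTTGAA or TTCGAA, is bound by MuvB complexes, and the CCAAT box by NF-Y. An E2F site was written as TTCGCGC or TTGGCGC. Each motif was searched on both strands in windows from 250 bases before to 50 bases after the RefSeq start, and an E2F site may overlap a CCAAT box, since ATTGG and TTGGCGC share TTGG. RefSeq windows (GRCm38.p6, the assembly that mm10 is taken from) were found for 40 of the 48 genes. A CHR was found in 28 of these 40 genes (70%), against 16.59% of the 10117 tested genes with a window. A CCAAT box was found in 30 (75%), against 43.09%, and an E2F site in 6 (15%), against 8.066%. Among the members that fell by both thresholds, 20 of 24 had a CHR (83.33%), and among the others 8 of 16 did (50%). The median log2 fold change was -1.24 for the 28 members with a CHR and -0.90 for the 12 without, and both ranges were wide, from -1.83 to -0.030 and from -1.38 to 0.29. For the CCAAT box the medians were -1.24 with and -1.09 without, and for the E2F site -1.21 and -1.15. A CCAAT box lay in 75% of the members that fell by both thresholds and in 75% of the others. These shares are descriptions, and a match is not shown to be a bound site.

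The bases just before the RefSeq start are shown for members that fell with motifs (Cdk1, Ccnb2, Cdc20, Kif11 and Top2a), for Birc5, which fell and had none of the 3, and for Ccnb1 and Bub3, which did not fall by both thresholds. Sequences read 5′ to 3′ along the gene, and capitals mark CHR and CCAAT letters on either strand (ATTGG is a CCAAT box and TTCAAA a CHR on the other strand). They end at the base before the start, except that Top2a and Bub3 end 10 and 3 bases earlier, where the annotated gene begins. Positions are counted back from the start, whose preceding base is -1.
Cdk1, chr10:69352913-69353032, minus strand: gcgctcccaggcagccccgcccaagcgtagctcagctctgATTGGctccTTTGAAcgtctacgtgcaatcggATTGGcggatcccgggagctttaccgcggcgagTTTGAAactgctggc
Ccnb2, chr9:70421555-70421674, minus strand: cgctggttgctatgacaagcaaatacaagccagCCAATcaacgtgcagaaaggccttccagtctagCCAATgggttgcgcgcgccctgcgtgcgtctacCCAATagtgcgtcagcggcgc
Cdc20, chr4:118437344-118437463, minus strand: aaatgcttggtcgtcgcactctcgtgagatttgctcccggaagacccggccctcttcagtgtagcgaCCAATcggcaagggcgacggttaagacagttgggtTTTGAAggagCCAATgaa
Kif11, chr19:37376262-37376381, plus strand: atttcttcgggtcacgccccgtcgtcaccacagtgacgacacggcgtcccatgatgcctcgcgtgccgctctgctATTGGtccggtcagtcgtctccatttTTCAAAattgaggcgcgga
Top2a, chr11:99024200-99024309, minus strand: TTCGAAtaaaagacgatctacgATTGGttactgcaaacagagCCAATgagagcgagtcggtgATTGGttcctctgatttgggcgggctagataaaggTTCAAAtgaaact
Birc5, chr11:117849117-117849236, plus strand: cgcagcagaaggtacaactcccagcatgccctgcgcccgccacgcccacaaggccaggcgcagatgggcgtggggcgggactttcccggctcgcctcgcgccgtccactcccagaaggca
Ccnb1, chr13:100786487-100786606, minus strand: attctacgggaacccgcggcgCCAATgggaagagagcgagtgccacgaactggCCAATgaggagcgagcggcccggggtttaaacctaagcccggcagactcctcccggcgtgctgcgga
Bub3, chr7:131560250-131560366, plus strand: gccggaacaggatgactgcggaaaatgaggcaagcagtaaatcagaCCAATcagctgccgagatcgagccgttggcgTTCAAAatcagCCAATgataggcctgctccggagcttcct
In Cdk1 the 2 CHR begin at -71 and -15, beside CCAAT boxes at -80 and -48. Cdc20 has a CHR at -18 and Kif11 one at -19, both downstream of a CCAAT box. Ccnb2 shows 3 CCAAT boxes before the start, and its CHR lie at -167 and 5 bases past the start, outside the stretch shown. Ccnb1 has CCAAT boxes at -99 and -67 and no CHR. Bub3 has a CHR at -43 between CCAAT boxes at -74 and -32, the same letters as genes that fell, with a log2 fold change of -0.030.

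**Figure D2:**
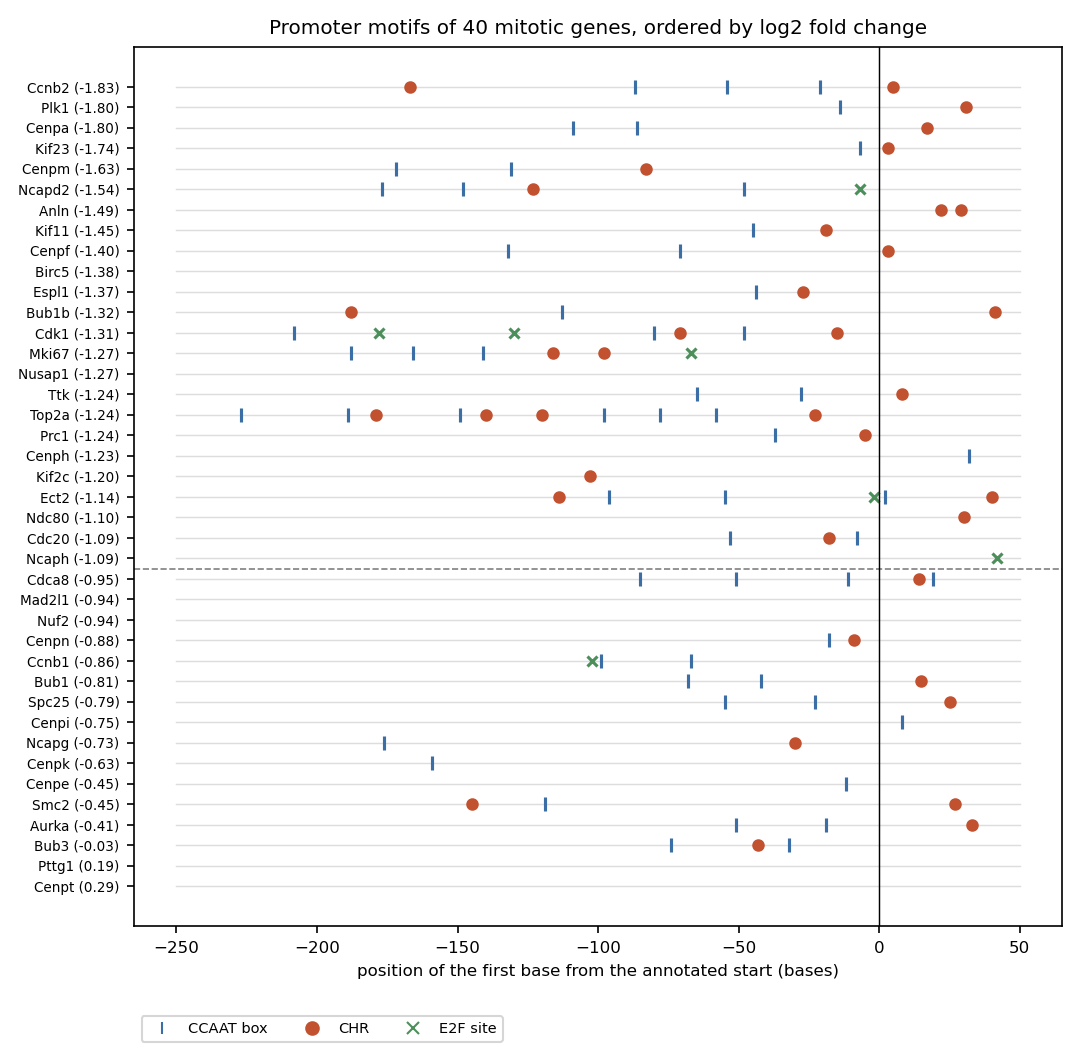
Each line is the RefSeq window of 1 of 40 mitotic genes, with position from the annotated start in bases, ordered by log2 fold change (in parentheses) from the lowest at the top, and the dashed line divides the 24 genes that fell by both thresholds from the other 16. CHR motifs (circles) lie in 20 of the 24 and in 8 of the 16, CCAAT boxes (bars) in 18 and 12, and E2F sites (crosses) in 5 and 1; Pttg1 had a value of -0.027 in place of 0.19 when libraries were scaled by their totals alone.

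Among the mitotic kinases and cyclins, all 6 genes fell by the adjusted p and 4 also by the fold change, with a median log2 fold change of -1.42. Cdk1, the kinase that drives entry into mitosis, was at 19.6, 19.3 and 19.4 FPKM in control and 6.38, 6.98 and 6.94 in TgAPPsweOCN libraries, a log2 fold change of -1.31 (SE 0.0587, adjusted p = 4.56e-07). Its cyclin partners had unequal fold changes. Ccnb2 (cyclin B2) was at 17.4, 18.8 and 18.2 FPKM in control and 4.25, 4.31 and 4.64 in TgAPPsweOCN libraries, and its log2 fold change of -1.83 (SE 0.0801, adjusted p = 4.04e-07) was the largest of the 48. Ccna2 (cyclin A2) was at 22.6, 24.5 and 24.8 FPKM against 6.64, 7.65 and 7.06, with a log2 fold change of -1.53 (SE 0.0691, adjusted p = 4.66e-07). Ccnb1 (cyclin B1) stood at 47.4% of the control mean, with a log2 fold change of -0.86 (SE 0.109, adjusted p = 0.000156). The ratio of Ccnb2 to Ccnb1 in FPKM was 1.85 ± 0.0645 in control and 0.960 ± 0.137 in TgAPPsweOCN libraries (mean ± SD, n = 3 each). The Polo kinase Plk1 was at 17.6, 15.4 and 15.8 FPKM in control and 3.29, 4.15 and 4.66 in TgAPPsweOCN libraries, a log2 fold change of -1.80 (SE 0.117, adjusted p = 3.41e-06). Aurka, the Aurora kinase of the spindle poles, had the smallest change of the group, from 9.42, 10.3 and 10.1 FPKM to 5.23, 7.28 and 6.76, a log2 fold change of -0.41 (SE 0.115, adjusted p = 0.0124). Every control library lay above every TgAPPsweOCN library in FPKM for each of the 6 genes, an order seen in 48.3% of all genes tested. Foxm1, a transcription factor that activates many G2/M genes, was at 11.4, 10.3 and 10.4 FPKM in control and 2.68, 3.64 and 3.11 in TgAPPsweOCN libraries, and fell with a log2 fold change of -1.55 (SE 0.102, adjusted p = 3.51e-06).

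**Figure D3:**
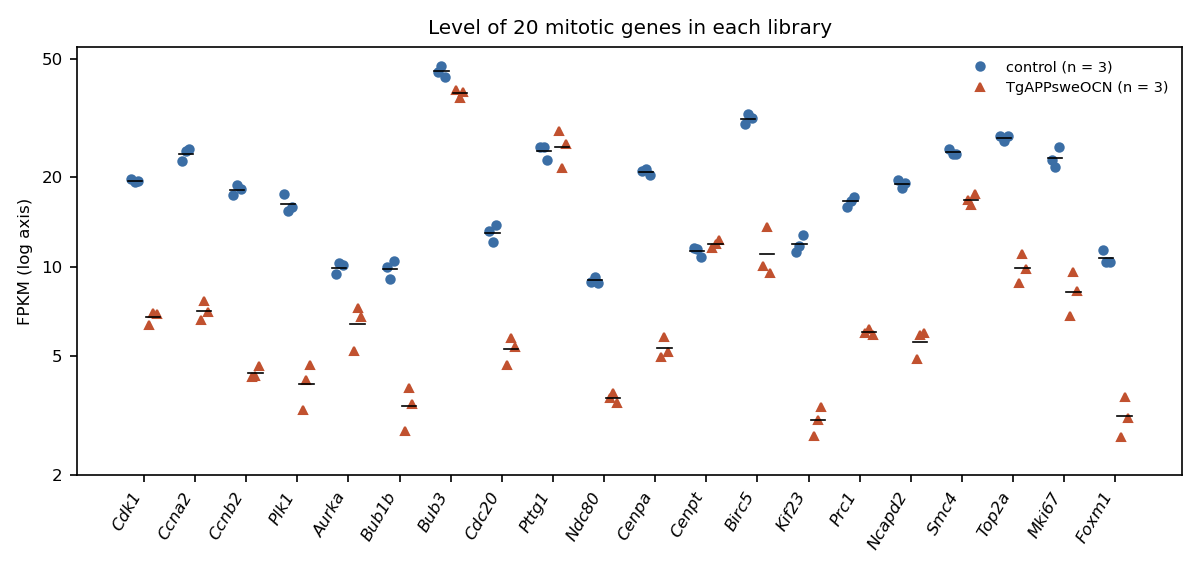
FPKM (log axis) of 20 mitotic genes in each control (blue circles) and TgAPPsweOCN (red triangles) library, with short lines at the means of 3. The genotypes are apart for each gene shown except Pttg1, and all but Pttg1 and Cenpt are lower in TgAPPsweOCN libraries on this scale. Over all genes tested, 48.3% had every control library above every TgAPPsweOCN library.

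The 5 spindle assembly checkpoint genes ranged widely in fold change. Bub1b (BubR1), which restrains the anaphase-promoting complex, was at 9.98, 9.07 and 10.5 FPKM in control and 2.81, 3.90 and 3.47 in TgAPPsweOCN libraries, a log2 fold change of -1.32 (SE 0.109, adjusted p = 1.34e-05). The checkpoint kinase Ttk (Mps1) was at 3.22, 3.76 and 3.16 FPKM against 1.15, 1.41 and 1.12, a log2 fold change of -1.24 (SE 0.144, adjusted p = 9.74e-05). Both fell by both thresholds, although Ttk did not reach the fold change threshold in log2(FPKM + 1). Mad2l1 (-0.94) and the kinase Bub1 (-0.81) fell by the adjusted p alone. Bub3, which brings Bub1 and BubR1 to kinetochores, was the most abundant of the 48 genes, with 45.2, 47.4 and 43.3 FPKM in control and 39.2, 36.8 and 38.5 in TgAPPsweOCN libraries. Its FPKM groups did not overlap, but its log2 fold change on the TMM scale was -0.030 (SE 0.0629, adjusted p = 0.697), and -0.25 (adjusted p = 0.00542) when libraries were scaled by their totals alone. The ratio of Bub1b to Bub3 in FPKM, which no scaling of a library changes, was 0.221, 0.192 and 0.242 in control and 0.0717, 0.106 and 0.0901 in TgAPPsweOCN libraries.

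The 3 genes of anaphase onset also ranged widely. Cdc20, the activator of the anaphase-promoting complex that the checkpoint inhibits, was at 13.2, 12.1 and 13.8 FPKM in control and 4.68, 5.78 and 5.38 in TgAPPsweOCN libraries, a log2 fold change of -1.09 (SE 0.0958, adjusted p = 1.91e-05). Espl1 (separase), the protease that cuts cohesin, was at 4.53, 4.52 and 4.91 FPKM against 1.28, 1.70 and 1.67, a log2 fold change of -1.37 (SE 0.106, adjusted p = 8.68e-06). Pttg1 (securin), which holds separase inactive, was at 25.2, 25.2 and 22.9 FPKM in control and 28.6, 21.5 and 25.8 in TgAPPsweOCN libraries. Its groups overlapped, and its log2 fold change was 0.19 (SE 0.121, adjusted p = 0.2), which became -0.027 (adjusted p = 0.842) with library totals alone and 0.31 (adjusted p = 0.0211) without TgAPPsweOCN replicate 2. The ratio of Cdc20 to Pttg1 was 0.535 ± 0.0642 in control and 0.214 ± 0.0527 in TgAPPsweOCN libraries (mean ± SD, n = 3 each).

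All 4 subunits of the NDC80 complex, the kinetochore's link to microtubules, fell by the adjusted p, within a narrow range of log2 fold changes from -1.10 to -0.79. Ndc80 was at 8.89, 9.27 and 8.84 FPKM in control and 3.61, 3.77 and 3.48 in TgAPPsweOCN libraries (log2 fold change -1.10, SE 0.0820, adjusted p = 7.41e-06), the only subunit past the fold change threshold. Spc25, with the smallest change, was at 11.8, 13.7 and 12.4 FPKM against 6.09, 6.85 and 6.19 (log2 fold change -0.79, SE 0.0961, adjusted p = 0.000131). Nuf2 (-0.94) and Spc24 (-0.92) lay between them.

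The 9 centromere and CENP genes had the widest range of the role groups, from -1.80 to 0.29. Cenpa, the histone H3 variant that marks centromeres, was at 20.9, 21.3 and 20.4 FPKM in control and 4.96, 5.79 and 5.19 in TgAPPsweOCN libraries, a log2 fold change of -1.80 (SE 0.0872, adjusted p = 7.14e-07). Cenpm was at 7.26, 5.47 and 5.88 FPKM against 1.49, 1.55 and 1.64, a log2 fold change of -1.63 (SE 0.169, adjusted p = 4.80e-05). Both are parts of the inner kinetochore, and their groups lay far apart. Cenpf, a large protein of the outer kinetochore, was at 2.47, 2.41 and 2.72 FPKM in control and 0.580, 1.0 and 0.890 in TgAPPsweOCN libraries, a log2 fold change of -1.40 (SE 0.161, adjusted p = 8.95e-05), and missed the fold change threshold in log2(FPKM + 1). Cenph was at 4.42, 5.18 and 5.03 FPKM against 1.32, 2.16 and 1.85, with a log2 fold change of -1.23 (SE 0.195, adjusted p = 0.000605). Cenpn (-0.88), Cenpi (-0.75), Cenpk (-0.63) and the kinesin Cenpe (-0.45) fell by the adjusted p alone. Cenpt, which binds DNA and recruits the NDC80 complex, was at 11.5, 11.5 and 10.8 FPKM in control and 11.6, 11.9 and 12.3 in TgAPPsweOCN libraries. Its log2 fold change of 0.29 (SE 0.0660, adjusted p = 0.00445) was small and depended on scaling, since it was 0.076 (adjusted p = 0.328) with library totals alone. The ratio of Cenpa to Cenpt went from 1.82, 1.86 and 1.88 in control to 0.428, 0.487 and 0.422 in TgAPPsweOCN libraries.

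The chromosomal passenger complex corrects faulty attachments and later acts in cytokinesis. Its kinase Aurkb (Aurora B) was at 17.1, 17.1 and 16.4 FPKM in control and 5.32, 7.34 and 5.67 in TgAPPsweOCN libraries, a log2 fold change of -1.26 (SE 0.106, adjusted p = 1.49e-05). Birc5 (survivin) was at 30.1, 32.6 and 31.5 FPKM against 10.1, 13.6 and 9.52, a log2 fold change of -1.38 (SE 0.107, adjusted p = 8.99e-06). Cdca8 (borealin) fell by the adjusted p alone, with a log2 fold change of -0.95. The scaffold subunit Incenp was at 38.2, 33.5 and 34.9 FPKM in control and 20.5, 23.8 and 22.8 in TgAPPsweOCN libraries, and its log2 fold change of -0.46 (SE 0.0730, adjusted p = 0.000638) was the smallest of the complex. The ratio of Aurkb to Incenp was 0.477 ± 0.0316 in control and 0.272 ± 0.0317 in TgAPPsweOCN libraries. That of Aurkb to Aurka was 1.70 ± 0.102 and 0.955 ± 0.101.

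All 4 mitotic kinesins, proteins of the kinesin family that act on spindle microtubules, fell by both thresholds. Kif23, a motor of the spindle midzone, was at 11.2, 11.7 and 12.8 FPKM in control and 2.70, 3.06 and 3.39 in TgAPPsweOCN libraries, a log2 fold change of -1.74 (SE 0.0905, adjusted p = 1.02e-06). Kif11 (Eg5), which pushes the spindle poles apart, was at 7.77, 8.30 and 9.57 FPKM against 2.76, 2.77 and 2.51, a log2 fold change of -1.45 (SE 0.0940, adjusted p = 3.32e-06). The microtubule depolymerase Kif2c (MCAK) was at 5.92, 6.61 and 6.99 FPKM in control and 1.85, 2.94 and 2.54 in TgAPPsweOCN libraries, a log2 fold change of -1.20 (SE 0.151, adjusted p = 0.000157). Every control library lay above every TgAPPsweOCN library for each of these genes, as in 48.3% of all genes tested. Kif20a was at 11.1, 11.6 and 11.4 FPKM against 4.33, 5.11 and 4.86, and its log2 fold change of -1.04 (SE 0.0706, adjusted p = 4.39e-06) was close to the threshold, with a value of -0.99 once a trend on gene length was removed and -0.98 without TgAPPsweOCN replicate 1.

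Of the 5 genes of spindle assembly, midzone and cytokinesis, 4 fell by both thresholds. Anln (anillin), a scaffold of the cleavage furrow, was at 8.12, 8.84 and 8.81 FPKM in control and 2.47, 3.03 and 2.18 in TgAPPsweOCN libraries, a log2 fold change of -1.49 (SE 0.106, adjusted p = 5.51e-06). Prc1, which bundles antiparallel midzone microtubules, was at 15.9, 16.6 and 17.2 FPKM against 6.01, 6.17 and 5.91, with little spread within either genotype (log2 fold change -1.24, SE 0.0632, adjusted p = 9.14e-07). These genes act late in division, whereas Nusap1 binds microtubules around chromosomes. Nusap1 was at 10.3, 9.82 and 10.6 FPKM in control and 3.03, 4.08 and 3.89 in TgAPPsweOCN libraries, a log2 fold change of -1.27 (SE 0.0996, adjusted p = 9.78e-06). Ect2, the exchange factor that activates RhoA for cytokinesis, was at 4.88, 5.55 and 5.77 FPKM against 1.91, 2.33 and 2.11, a log2 fold change of -1.14 (SE 0.101, adjusted p = 2.08e-05). Tpx2, an activator of Aurora A, had the smallest change, from 15.8, 16.0 and 16.6 FPKM to 6.49, 8.07 and 7.19, and at -0.95 (SE 0.0777, adjusted p = 1.22e-05) it fell by the adjusted p but missed the fold change threshold.

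In condensin I the subunits separated. Ncapd2 was at 19.6, 18.3 and 19.1 FPKM in control and 4.90, 5.88 and 6.01 in TgAPPsweOCN libraries, a log2 fold change of -1.54 (SE 0.0779, adjusted p = 8.72e-07). Ncaph, the subunit that bridges the SMC heads, was at 14.1, 14.4 and 13.6 FPKM against 5.33, 6.34 and 5.44, a log2 fold change of -1.09 (SE 0.0768, adjusted p = 5.37e-06). These 2 subunits belong to condensin I alone, as does Ncapg (-0.73). The SMC ATPases Smc2 and Smc4, which condensin I shares with condensin II, had the smallest fold changes of the complex. Smc4 was at 24.8, 23.9 and 24.0 FPKM in control and 16.8, 16.1 and 17.5 in TgAPPsweOCN libraries, a log2 fold change of -0.31 (SE 0.0594, adjusted p = 0.00172), and the value for Smc2 was -0.45. The ratio of Ncapd2 to Smc4 was 0.790, 0.766 and 0.796 in control and 0.291, 0.366 and 0.343 in TgAPPsweOCN libraries. The gene pairs given as ratios here and above were chosen after their values were seen and are descriptions.

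Both proliferation markers fell by both thresholds. Top2a, the topoisomerase that untangles sister chromatids, was at 27.4, 26.4 and 27.6 FPKM in control and 8.81, 11.0 and 9.83 in TgAPPsweOCN libraries, a log2 fold change of -1.24 (SE 0.0741, adjusted p = 2.18e-06). Mki67, which coats mitotic chromosomes, was at 22.9, 21.6 and 25.2 FPKM against 6.81, 9.63 and 8.30, a log2 fold change of -1.27 (SE 0.112, adjusted p = 1.86e-05). Their TgAPPsweOCN means were 36.4% and 35.5% of the control means.

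**Figure D4:**
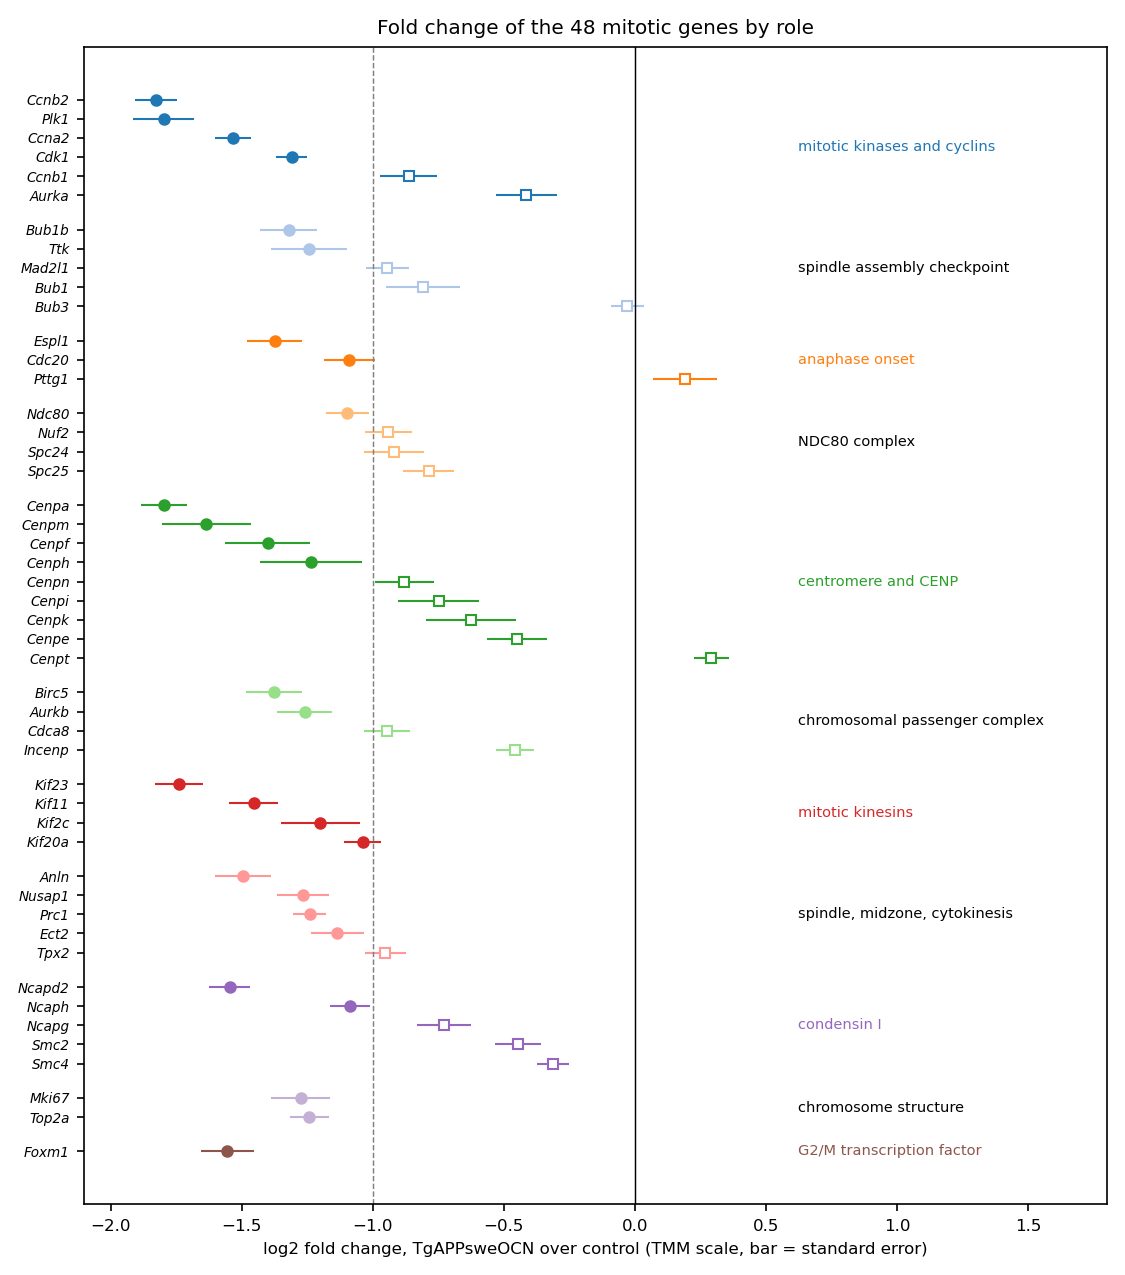
Log2 fold change (TgAPPsweOCN over control, TMM scale) of the 48 mitotic genes with its standard error, grouped by role, where filled circles fell by both thresholds, open squares did not, and the dashed line marks -1. The 28 filled circles include all 4 kinesins, and the only values above 0 are those of Pttg1 and Cenpt, of which Pttg1 was at -0.027 and Cenpt at 0.076 with library totals alone.

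Of the 17 members that fell by the adjusted p alone, 5 lay between -0.9 and -1 in log2 fold change (Mad2l1, Nuf2, Spc24, Cdca8 and Tpx2). Of the 28 that fell by both thresholds, 4 lay within 0.1 past -1 (Cdc20, Ndc80, Kif20a and Ncaph). Estimated counts were fractional for 10 of the 48 genes, including Ccna2, Birc5, Kif11 and Nusap1, whose values are uncertain as far as reads were split with other sequences. In addition, 21 of the 48 overlap another RefSeq gene, as Cdc20 does Elovl1, and whether counting used strand is not given in the sources used here. Overlap was judged by whole gene spans, introns included, and overlap of exons was not checked. Where exons do overlap, reads from the partner may not be told apart.

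Other genes of mitosis were counted in the same way. Of 120 further genes of the pathway, 119 were tested, 34 fell and 2 rose by both thresholds, against 9.2% and 8.9% of all genes tested. By the adjusted p, 83 fell and 16 rose, against 31.5% and 32.5%, and the median log2 fold change was -0.66. Among other spindle, kinesin and cytokinesis genes, 16 of 30 fell by both thresholds. The largest falls there were in Aspm, a spindle pole protein (-1.78), Cdca3 (-1.73), Knstrn (-1.67), Kif18a (-1.67) and Depdc1b (-1.56). Psrc1, a microtubule-binding protein of the spindle, went the other way, with 5.79, 5.29 and 4.91 FPKM in control and 10.6, 12.5 and 11.5 in TgAPPsweOCN libraries, a log2 fold change of 1.33 (SE 0.0964, adjusted p = 6.34e-06). Among mitotic entry genes, 8 of the 13 tested fell by both thresholds, with Cdc25b, the phosphatase that activates Cdk1, at -1.71, followed by Ccnf (-1.45), Pbk (-1.31), Haspin (-1.18) and the inhibitory kinase Pkmyt1 (-1.16). Among 28 other kinetochore subunits, 4 fell by both thresholds (Knl1, Oip5, Ska1 and Mis18a, from -1.36 to -1.11). Of these, Oip5 and Mis18a take part in loading Cenpa.

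Condensin II followed condensin I in part, since Ncapg2 (-1.73) and Ncapd3 (-1.03) of its 3 specific subunits fell by both thresholds. The 15 genes of cohesin, which holds sister chromatids together, had a median of -0.33, and only the acetyltransferase Esco2 fell by both thresholds (-1.48). The 18 genes of the anaphase-promoting complex had a median of -0.0074. In that group Fbxo5 (Emi1, an inhibitor of the complex, -1.58) and its E2 enzyme Ube2c (-1.14) fell by both thresholds. Its other E2 enzyme, Ube2s, rose from 105, 115 and 103 FPKM to 191, 190.0 and 181, a log2 fold change of 1.01 (SE 0.0630, adjusted p = 2.72e-06). It lay at the fold change threshold, with values of 0.99 without control replicate 1, 0.97 without control replicate 3, 0.98 without TgAPPsweOCN replicate 1, 0.80 with library totals alone and 0.79 to 0.80 in limma. Among 12 genes of MuvB, B-Myb and DREAM, the complexes that bind CHR, Tfdp2 alone fell by both thresholds (-1.09), while Mybl2 (B-Myb) had a value of -0.87 and fell by the adjusted p. The counts of 1 of 15 for cohesin, 2 of 18 for the anaphase-promoting complex and 1 of 12 here are near the 9.2% of all genes tested that fell by both thresholds.

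Other phases of the cell cycle are given beside the mitotic genes. Of 49 genes of DNA replication, 9 fell and 1 rose by both thresholds, which 9.2% and 8.9% of all genes tested met, with a median log2 fold change of -0.54. They include Tk1 (-1.77), Pole2 (-1.44), Gmnn (-1.30), Mcm7 (-1.17) and Pole (-1.14), and Pole4 rose (1.75). Without TgAPPsweOCN replicate 1, 5 fell. Of 25 genes of homologous recombination and Fanconi repair, 7 fell and none rose in edgeR (0 at an unadjusted p under 0.05, and 0 with DESeq2 and limma), with a median of -0.78, among them Xrcc3 (-1.59), Fanci (-1.37), Rad54l (-1.31), Exo1 (-1.24) and Fanca (-1.05), and 4 fell without TgAPPsweOCN replicate 1. By the adjusted p alone, 45 of 48 mitotic genes, 38 of 49 replication genes and 22 of 25 repair genes fell, against 31.5% of all genes tested, and 1, 4 and 0 rose, against 32.5%. By both thresholds 28 of 48, 9 of 49 and 7 of 25 fell, and the difference between the lists was not tested.

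**Figure D5:**
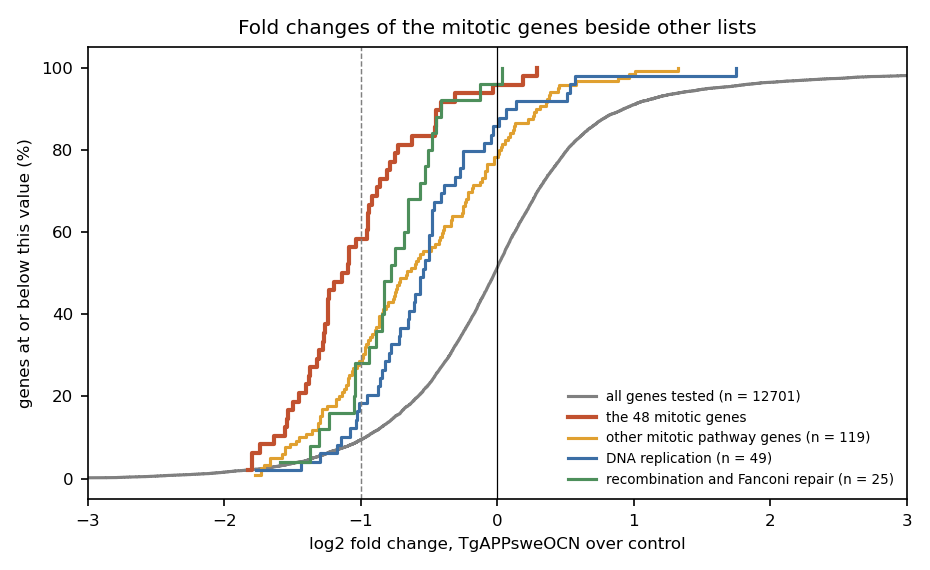
Cumulative share of genes (percent) at or below each log2 fold change (TgAPPsweOCN over control) for all 12701 genes tested, the 48 mitotic genes, 119 other mitotic pathway genes, 49 DNA replication genes and 25 repair genes. The medians are -0.019, -1.12, -0.66, -0.54 and -0.78 in that order.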

How the data were processed

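RNA-seq was measured in 3 control and 3 TgAPPsweOCN libraries, grouped by the genotype in the sample labels. The authors deposited estimated counts, made on a DNBSEQ platform with rRNA, adaptor and low-quality reads removed, and FPKM for the same genes. The submitters' processing notes name HISAT2 2.0.4, Bowtie2 2.2.5, RSEM 1.2.12, DESeq2 1.4.5 and mm10. The annotation is not given in the sources used here. A further deposited table holds the authors' log fold changes and p-values and was not used. The test was planned on counts, and since the deposited counts were estimates (13.3% to 14.4% of genes per library held fractions) they were rounded. They were tested with edgeR 4.0.16 in R 4.3.3 (quasi-likelihood test, TMM factors, genes kept by filterByExpr) at an adjusted p of 0.05 and, as a second threshold, an absolute log2 fold change of 1. A total of 19340810 to 22037840 counts puts 3 counts at 0.136 to 0.155 CPM, which covers counting error only.

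The members and gene lists were chosen with earlier results of these data known. Values in every library are given, within each role, for members past both thresholds, for those with the largest and smallest change, and for a member that rose by the adjusted p. Of other lists, at most 5 called genes in each direction are named, and Mybl2, Bglap, Dmp1, Pf4, Cd79b, Pecam1 and the called myeloid markers were added after their values were seen. Alternatives were DESeq2 1.42.0, RLE size factors, library totals alone, other filters (at least 1 count in any library, or 10 in every library), a replicate block, removal of a length trend (lowess span 0.3), limma 3.58.1 on log2(FPKM + 1) or log2(FPKM + 0.1), and leaving out each library. The procedure was tested on simulated data. Promoter windows and gene positions came from RefSeq (GRCm38.p6) and were matched by gene identifier. Tables were prepared in Python 3.11.15 with pandas 2.3.3, and plots drawn with matplotlib 3.10.9.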

Additional observations from a re-analysis of the deposited data

How the results depend on the processing

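Over 17 alternatives, 45 of the 48 mitotic genes had a log2 fold change below 0 in each, and 25 of the 28 genes that fell by both thresholds did so in each. The exceptions were Ttk and Cenpf (limma on log2(FPKM + 1), with or without a filter) and Kif20a (length trend removed, with or without the replicate block, and without TgAPPsweOCN replicate 1). The count of 28 ranged from 27 to 37, and from 27 to 32 when 1 library was left out. Of 816 gene values, 2 changed sign. Bub3 was at 0.0112 (adjusted p = 0.904) without TgAPPsweOCN replicate 2, with values from -0.0753 to 0.0112 when 1 library was left out, and Pttg1 at -0.0269 (adjusted p = 0.842) with library totals alone. Bub3 fell by the adjusted p with library totals alone and in the 3 limma fits, with values from -0.25 to -0.24. Cenpt lost its call in the same 4 fits, which left 0 members higher by the adjusted p, and leaving out 1 library gave 1 to 2 such members.

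With library totals alone, 15 DNA replication genes and 12 repair genes fell, and 1 further mitotic gene rose. With limma on log2(FPKM + 0.1), 15 replication genes fell and 1 further mitotic gene rose. With limma on log2(FPKM + 1), with or without a filter, 2 repair genes fell, 0 further mitotic genes rose, and 593 (with the filter) or 589 (without) genes in all rose. With the length trend removed, 4 repair genes fell. Leaving out 1 library gave 5 to 11 replication genes and 4 to 7 repair genes lower, and 1 to 2 further mitotic genes higher. The cause of these shifts was not tested.

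Control and TgAPPsweOCN libraries share replicate numbers, but the deviations of same-numbered libraries correlated at 0.0127, 0.00664 and 0.141, so the numbers were not taken as pairs. With the replicate block, 28 members fell, and 1147 genes fell and 1115 rose in all, against 1169 and 1130. Of the 48 genes, Cenph, Cenpk and Cenpm had the largest standard errors (0.195, 0.172 and 0.169), with 34 to 135 estimated counts per library.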
